A study of Mus musculus with 18 samples.

Results

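The microvillus structural genes described here are 10 genes whose products build, link or power the actin-filled microvilli of the intestinal brush border. They were taken by symbol (Vil1, Espn, Ezr, Cdhr2, Cdhr5, Ush1c, Myo7b, Myo1a, Pdzk1 and Tmigd1) and all 10 were found in each of the 3 tables of normalized counts, out of 18838 genes listed in at least 1 table. RNA was sequenced in bulk from duodenal epithelium of 3 WT (Mtgr1+/+) and 3 Mtgr1-/- mice, the latter lacking the transcriptional co-repressor MTGR1 (gene symbol Cbfa2t2) in every tissue rather than in the epithelium alone. Each mouse gave 1 library of freshly isolated crypts, 1 of enteroids (small intestinal organoids grown in Matrigel from those crypts) after 24 h (day 1) and 1 of enteroids after 72 h (day 3), so that 18 libraries formed 6 groups of 3. The mice were littermates of both sexes and no other allele or agent separated the groups, according to the study's methods.

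A microvillus is a finger of plasma membrane around a bundle of parallel actin filaments. Villin and espin, together with fimbrin, crosslink those filaments, ezrin and the class I myosin Myo1a tie the bundle to the membrane, and the 2 protocadherins Cdhr2 and Cdhr5 reach from the tips of neighbouring microvilli and bind each other. Inside the tip the protocadherins are held by a complex that includes the scaffold harmonin (Ush1c) and the motor Myo7b. In the small intestine the brush border is assembled as cells leave the crypt and become enterocytes.

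The 16 libraries whose recovered reads were used held 22035316 to 28621990 reads on genes. In the 3 tables Cbfa2t2, the targeted gene, was not lower in the libraries labelled Mtgr1-/-: its normalized count was 577 ± 48.3 in WT and 566 ± 119 in Mtgr1-/- crypts, 752 ± 39.3 and 986 ± 187 on day 1, and 842 ± 59.4 and 878 ± 106 on day 3 (mean ± SD, n = 3). A gene-level count does not show whether a transcript is intact, so it gave no check of the labels, and Mtgr1-/- below means a library with that label. WT crypt replicate 3 stood apart in leukocyte and red cell markers. The summed level of 8 such markers was 357 RPM there (reads scaled to 1000000 per library). It was 35.9 and 32.3 in the other WT crypts and 12.5 to 43.0 in Mtgr1-/- crypts. Results in crypts are therefore also given without WT crypt replicate 3. Mtgr1-/- replicate 2 stood apart from its group in Paneth markers, as given with the cell types below. Within each of the 3 tables, WT and Mtgr1-/- libraries were compared by limma on the log2(normalized count + 1) scale, for genes averaging at least 10 over the 6 libraries, and p-values were adjusted over all genes tested (Benjamini-Hochberg). A gene is called when its adjusted p is under 0.05, and all 10 members passed the filter at every time point, Tmigd1 on day 1 only through the Mtgr1-/- libraries.

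RefSeq start sites (GRCm38.p6) were on hand for 9 of the 10 genes, with 13 starts in all, and Myo7b had no entry. The 250 bases before a start were searched on both strands for 7 short motifs: CAAAGTCCA (HNF4), TTTATNG (CDX), AGATAA (a site of GATA factors), CTTTGAT (TCF), GTGGGAA (RBPJ) and the E-boxes CAGCTG and CAGGTG, none of which overlapped another match in the windows printed. The windows before 6 starts are shown, 5′ to 3′ on the gene's own strand and with motif matches in capitals, for the gene with the highest level (Vil1, chr1:74409134-74409383, plus strand), the 2 protocadherins that bind each other (Cdhr2, chr13:54701213-54701462, plus strand, and Cdhr5, chr7:141276787-141277036, minus strand), the scaffold of their complex (Ush1c, chr7:46238491-46238740, minus strand), and the 2 genes with the largest genotype differences on day 1 (the most downstream of the 3 starts of Espn, chr4:152128926-152129175, minus strand, and the start of Tmigd1 that GENCODE also lists, chr11:76901909-76902158, plus strand).
Vil1: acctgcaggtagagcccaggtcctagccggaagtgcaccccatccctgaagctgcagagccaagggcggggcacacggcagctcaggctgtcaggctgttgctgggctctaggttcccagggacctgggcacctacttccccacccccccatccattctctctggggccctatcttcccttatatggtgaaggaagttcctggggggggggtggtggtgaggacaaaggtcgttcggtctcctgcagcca
Cdhr2: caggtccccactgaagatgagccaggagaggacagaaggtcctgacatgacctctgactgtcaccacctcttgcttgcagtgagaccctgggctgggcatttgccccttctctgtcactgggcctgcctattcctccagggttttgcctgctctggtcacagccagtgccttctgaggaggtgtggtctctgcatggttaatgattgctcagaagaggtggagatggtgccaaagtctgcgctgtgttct
Cdhr5: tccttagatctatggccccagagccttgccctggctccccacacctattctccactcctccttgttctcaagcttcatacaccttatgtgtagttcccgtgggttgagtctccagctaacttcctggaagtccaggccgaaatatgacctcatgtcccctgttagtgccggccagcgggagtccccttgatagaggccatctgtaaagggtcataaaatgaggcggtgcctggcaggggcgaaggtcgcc
Ush1c: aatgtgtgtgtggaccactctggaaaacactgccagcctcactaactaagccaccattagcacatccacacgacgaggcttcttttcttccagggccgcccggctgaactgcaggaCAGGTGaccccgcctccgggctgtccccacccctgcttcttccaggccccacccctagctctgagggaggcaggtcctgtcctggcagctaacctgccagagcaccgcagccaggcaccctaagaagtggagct
Espn: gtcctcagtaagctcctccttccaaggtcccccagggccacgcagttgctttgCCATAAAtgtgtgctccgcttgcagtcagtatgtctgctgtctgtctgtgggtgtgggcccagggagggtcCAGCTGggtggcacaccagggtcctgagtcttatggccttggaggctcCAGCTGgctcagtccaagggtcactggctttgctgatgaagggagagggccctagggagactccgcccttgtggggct
Tmigd1: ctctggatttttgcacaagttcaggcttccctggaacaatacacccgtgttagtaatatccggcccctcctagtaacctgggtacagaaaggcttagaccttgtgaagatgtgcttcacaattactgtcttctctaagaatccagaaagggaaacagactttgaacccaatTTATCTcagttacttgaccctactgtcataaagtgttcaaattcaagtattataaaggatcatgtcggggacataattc

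No motif was shared by most of the members. The E-box CAGCTG lay before starts of Espn and Pdzk1, in 3 of 13 member windows against 13% of 32817 windows of the same length genome-wide. CAGGTG lay before Ush1c, Myo1a and Pdzk1, in 3 of 13 windows against 17.2%. The CDX letters were in 1 window (Espn) against 9.81%, the GATA letters in 1 (Tmigd1) against 9.99%, and the RBPJ letters in 1 (another start of Tmigd1) against 5.42%. The HNF4 and TCF letters were in 0 of 13 member windows, against 0.384% and 3.21% of all windows. The windows before Vil1, Ezr, Cdhr2 and Cdhr5 held none of the 7. Of the windows printed, those of Vil1, Cdhr2 and Ush1c shared 8, 2 and 13 bases with annotated exons and the other 3 none. A match is a description of the letters, not of a bound site.

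In the GENCODE annotation (GRCm38) that the tables use, Vil1 (ENSMUSG00000026175.12, chr1:74409376-74435559) was on the plus strand and overlapped Usp37 on the other strand. Likewise, Ezr (ENSMUSG00000052397.8, chr17:6738041-6782784, minus strand) overlapped Sytl3, Pdzk1 (ENSMUSG00000038298.14, chr3:96829284-96870926, plus strand) overlapped Cd160, Gpr89 and an antisense gene, and Ush1c and Myo7b overlapped small predicted genes. The other 5 members overlapped no gene: Espn (ENSMUSG00000028943.18, chr4:152120331-152152371, minus strand), Cdhr2 (ENSMUSG00000034918.8, chr13:54701461-54736662, plus strand), Cdhr5 (ENSMUSG00000025497.15, chr7:141269083-141276786, minus strand), Myo1a (ENSMUSG00000025401.9, chr10:127705170-127720940, plus strand) and Tmigd1 (ENSMUSG00000020839.16, chr11:76902159-76916587, plus strand). Libraries were made with a stranded kit, but the strand setting of the quantification was not given in the sources used here, so that reads of opposite genes may not have been kept apart.

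Levels were first compared between the members, as RPM per kilobase of the longest coding transcript (RPKM, mean ± SD of 3 libraries). Vil1 was the highest of the 10 in each of the 6 groups, at 609 ± 65.0 in WT and 665 ± 53.0 in Mtgr1-/- crypts. In WT crypts it was followed by Myo1a (395 ± 23.4), Cdhr5 (334 ± 17.5), Cdhr2 (225 ± 17.2) and Ezr (197 ± 35.5), and the libraries of Cdhr2 and Ezr overlapped. Myo7b (68.5 ± 5.74) and Ush1c (66.1 ± 3.33) overlapped each other as well. Pdzk1 (36.4 ± 1.78), Espn (15.4 ± 2.26) and Tmigd1 (3.45 ± 2.66) were the lowest, without overlap. On WT day 3, Vil1 (190.1 ± 4.56) and Myo1a (143 ± 8.29) were again the highest. Ezr (114 ± 3.30) now stood above Cdhr5 (104 ± 5.08) and Cdhr2 (64.0 ± 4.56) without overlap, and Pdzk1 was below Espn (4.19 ± 0.0913) at 0.955 ± 0.326 with libraries overlapping those of Tmigd1 (0.336 ± 0.245). In Mtgr1-/- day 3 enteroids Vil1 was at 343 ± 27.6, Cdhr5 (278 ± 36.9) stood second in place of Myo1a (251 ± 42.3) with overlapping libraries, and Pdzk1 (2.00 ± 1.24) was lowest. Adding the 10 genes gave 6120 to 6924 RPM in WT crypts and 6400 to 7933 in Mtgr1-/- crypts, which overlapped. The sums were 3134 to 3780 against 5790 to 7424 on day 1 and 2353 to 2492 against 4256 to 5054 on day 3, with no overlap at either time.

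**Figure D1:**
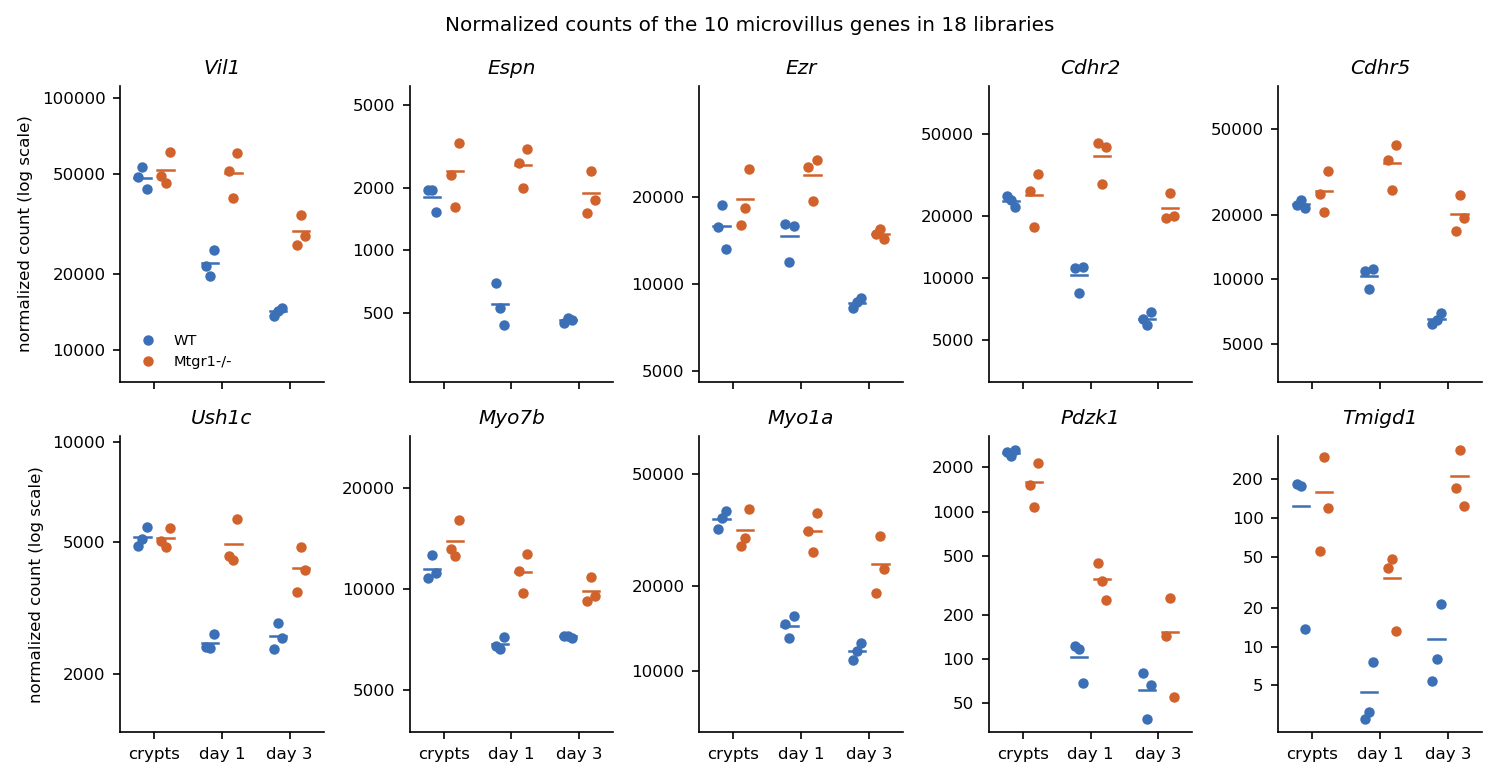
Normalized counts (log scale) of the 10 microvillus genes in crypts, day 1 and day 3 enteroids. Each point is 1 library, WT in blue and Mtgr1-/- in orange, and bars are means of 3. The genotypes overlap in crypts for every gene but Pdzk1, while 25.5% of all genes tested do not overlap there in either direction. The points separate, Mtgr1-/- being higher, on day 1 for all 10 and on day 3 for all but Pdzk1. So do those of 34.2% of all genes tested on day 1 and 34.6% on day 3. Tmigd1 passed the filter on day 1 only through its Mtgr1-/- libraries.

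In crypts, none of the 10 genes was called by limma (0 of 10, against 1.58% of 12980 genes called higher, 3.15% called lower and 4.73% called in either direction). Their log2 differences (Mtgr1-/- minus WT) ran from -0.72 to 0.70, with a median of 0.14 beside 0.0076 over all genes tested. One member, Pdzk1, had an unadjusted p below 0.05 (0.0172), and count tests on the recovered reads of 5 libraries (without WT replicate 2) likewise called 0 of 10, with edgeR calling 1.58% and DESeq2 9.18% of 13006 genes. Without WT crypt replicate 3, limma again called 0 of 10.

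The crypt values of the 2 actin bundlers overlapped between genotypes. Vil1, which bundles and severs actin, was at 48452, 53143 and 43494 normalized counts in WT and 49184, 45921 and 61001 in Mtgr1-/- crypts (replicates 1 to 3 in each), a log2 difference of 0.10 (SE 0.18, adjusted p 0.822). Espn, a crosslinker that lengthens the bundle, was at 1957, 1943 and 1528 and 2311, 1613 and 3269.8, a difference of 0.36 (SE 0.25, adjusted p 0.508). In both genes Mtgr1-/- replicate 3 held the highest of the 6 values, and it was above its group mean for 8 of the 10 members. The protocadherins were similar: Cdhr2 was at 24996, 23879.8 and 22084 in WT and 26289.6, 17583 and 31938 in Mtgr1-/- crypts (difference 0.054, SE 0.22), and Cdhr5 differed by 0.19 (SE 0.17). Ush1c was the closest to 0, at -0.013 with a 95% confidence interval of -0.23 to 0.21. Ezr was at 15765, 18690.4 and 13163 in WT and 15983, 18289 and 24998 in Mtgr1-/- crypts, and Myo7b at 10785, 12657 and 11169 and 13203, 12544 and 16085. Ezr (0.30, SE 0.21), Myo7b (0.27, SE 0.13) and Myo1a (-0.14, SE 0.16) also missed the threshold, with overlapping groups.

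Pdzk1 and Tmigd1 behaved differently from the other members in crypts. Pdzk1, a PDZ scaffold that anchors apical transporters, was at 2536, 2370.0 and 2626 in WT and 1513, 1077 and 2153 in Mtgr1-/- crypts. Every Mtgr1-/- library was below every WT library, as was true in one or other direction of 1 of 10 members and 25.5% of all genes. The log2 difference was -0.72 (SE 0.23, adjusted p 0.152), and it passed the threshold with array weights (-0.70, adjusted p 0.0144) and without Mtgr1-/- replicate 3 (-0.97, adjusted p 0.0414). The estimation of the array weights stopped short of its tolerance in crypts. The difference was -0.47 (adjusted p 0.188) without Mtgr1-/- replicate 2 and -0.69 (adjusted p 0.270) without WT replicate 3. Tmigd1, an immunoglobulin-domain adhesion protein of the brush border, was at 182, 177 and 13.8 in WT and 55.6, 299.6 and 119.9 in Mtgr1-/- crypts. The low WT value belonged to replicate 3, the library with the high leukocyte markers. Tmigd1 differed by 0.70 (SE 1.07, adjusted p 0.788) with that library and by -0.51 (adjusted p 0.773) without it, so no direction could be given.

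By day 1, all 9 genes other than Tmigd1 were higher in Mtgr1-/- enteroids (9 of 9 called, against 30% of 12587 genes called higher and 28.9% called lower), and in each of the 9 the lowest Mtgr1-/- library was above the highest WT library (34.2% of all genes). Tmigd1 was called as well, but it passed the filter on low values only through the Mtgr1-/- libraries and so is given by its values. The differences of the 10 ran from 0.70 for Ezr to 2.60 for Tmigd1. In bulk RNA, a change in the number of cells that carry a brush border cannot be told apart from a change in the RNA per cell, here or in what follows. On the reads of the 6 libraries edgeR and DESeq2 also called the 9 genes higher, while calling 58.6% and 59.5% of 12623 genes in either direction.

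The actin bundlers differed by unequal amounts on day 1. Vil1 was at 21477, 19720.3 and 25046 in WT and 51204, 40202 and 60449.6 in Mtgr1-/- enteroids, 2.29-fold higher by the means and 1.18 (SE 0.17, adjusted p 0.00106) on the log2 scale. Espn was at 699, 531 and 439 in WT and 2632, 1983 and 3067 in Mtgr1-/- enteroids, 4.60-fold higher, with a log2 difference of 2.20 (SE 0.21, adjusted p 2.09e-04). The lowest Mtgr1-/- value of Espn was thus above all 3 WT values by more than the spread of either group. Ezr, the linker between actin and membrane proteins, was at 16144, 11905 and 15899 in WT and 25329, 19328 and 26898 in Mtgr1-/- enteroids. Its difference of 0.70 (SE 0.17, adjusted p 0.00889) was the smallest of the 10, and it missed the threshold after quantile normalization (0.28, adjusted p 0.0822).

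The tip adhesion complex was split between its cadherins and its inner parts. Cdhr2 was at 11186, 8452 and 11244 in WT and 45367, 28635 and 43305 in Mtgr1-/- day 1 enteroids, a difference of 1.91 (SE 0.20, adjusted p 3.08e-04). Its partner Cdhr5 was at 10943, 8999 and 11188 and 35842, 26047 and 42378, a difference of 1.72 (SE 0.19, adjusted p 3.34e-04). Cdhr2 was 3.80-fold and Cdhr5 3.35-fold higher by the means, with no overlap, and Mtgr1-/- replicate 2 was the lowest of its group for each. Ush1c, which encodes harmonin, was at 2411, 2398 and 2634 and 4539, 4413 and 5838, a difference of 0.98 (SE 0.12, adjusted p 5.22e-04). Myo7b, the motor that harmonin recruits, was at 6759, 6656 and 7213 and 11315, 9784 and 12731, a difference of 0.71 (SE 0.11, adjusted p 0.00140). The scaffold and the motor were therefore higher by less than the cadherins were.

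Myo1a, the myosin that links the bundle to the lateral membrane, was at 14694, 13122 and 15622 in WT and 31371, 26362 and 36306 in Mtgr1-/- day 1 enteroids, a difference of 1.11 (SE 0.14, adjusted p 6.13e-04), close to that of Vil1. Pdzk1 was at 122, 118 and 68.7 in WT and 449, 339 and 253 in Mtgr1-/- enteroids, a difference of 1.75 (SE 0.28, adjusted p 0.00156). Every Mtgr1-/- library was above every WT library, the reverse of the order in crypts. Tmigd1 was near the detection limit on day 1, at 2.74, 3.12 and 7.54 in WT and 40.8, 48.4 and 13.2 in Mtgr1-/- enteroids. These stood for 15 reads in the 3 WT libraries and 98 in the 3 Mtgr1-/- libraries, a ratio per read of depth of 6.06 (95% interval 3.50 to 11.2, counting error only). The fitted log2 difference was 2.60 (SE 0.60).

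On day 3, 9 of the 10 genes were called higher and 0 lower (29.9% of 12782 genes called higher, 29.1% lower), and the groups did not overlap, Mtgr1-/- being higher, for the same 9 genes (34.6% of all genes). The exception was Pdzk1. The median difference was 1.07, beside 0.0026 over all genes. With the recovered reads of 5 libraries (without Mtgr1-/- replicate 2) edgeR and DESeq2 called 9 of 10, and 56.6% and 54.4% of 12788 genes in either direction.

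Vil1 was at 13663, 14347 and 14680.2 in WT and 26054, 34389 and 28394 in Mtgr1-/- day 3 enteroids, a difference of 1.05 (SE 0.12, adjusted p 2.26e-04). Espn was at 449.9, 476 and 465 and 1517, 2414 and 1748, a difference of 2.00 (SE 0.16, adjusted p 4.41e-05), again the larger of the 2 bundlers. For both genes the 3 WT values lay close together and far below the lowest Mtgr1-/- value. Ezr was at 8234, 8643 and 8946 and 14900.3, 15542 and 14254, a difference of 0.79 (SE 0.08, adjusted p 1.40e-04). Cdhr2 was at 6328, 5866 and 6815 and 19595, 25769.5 and 19984 (1.77, SE 0.12, adjusted p 2.53e-05), and Cdhr5 at 6233, 6479 and 7006 and 16784, 24621 and 19272 (1.60, SE 0.14, adjusted p 6.63e-05). Neither cadherin overlapped between genotypes, and both were higher by more than the inner parts of the complex, as on day 1. Ush1c was at 2376, 2855 and 2577 and 3543, 4828 and 4128, a difference of 0.67 (SE 0.12, adjusted p 0.00233), and Myo7b at 7274, 7279 and 7168 and 9209, 10872 and 9565, a difference of 0.45 (SE 0.086, adjusted p 0.00289). Myo7b had the smallest called difference of the day, 1.36-fold by the means, and missed the threshold after quantile normalization (0.16, adjusted p 0.0679). Myo1a was at 10961, 11817 and 12616 and 18995, 30011 and 22951, a difference of 1.00 (SE 0.16, adjusted p 0.00123). Mtgr1-/- replicate 2 was above its group mean for 9 of the 10 members.

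Tmigd1 had the largest difference of any member at any time. On day 3 it was at 5.38, 8.02 and 21.3 in WT and 169.5, 338 and 124 in Mtgr1-/- enteroids, 18.2-fold higher by the means, with a log2 difference of 4.15 (SE 0.52, adjusted p 3.83e-04). The WT values stood for 6, 9 and 22 reads. Pdzk1 was at 79.8, 39.2 and 66.8 in WT and 143, 257 and 55.0 in Mtgr1-/- enteroids, where the lowest Mtgr1-/- library (replicate 3) lay inside the WT range. Its difference of 1.08 (SE 0.52, adjusted p 0.106) had a 95% confidence interval of -0.12 to 2.28, and without Mtgr1-/- replicate 3 it was 1.68 (adjusted p 0.00758). It was 0.57 (adjusted p 0.296) without Mtgr1-/- replicate 2 and 0.068 (adjusted p 0.871) with array weights.

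**Figure D2:**
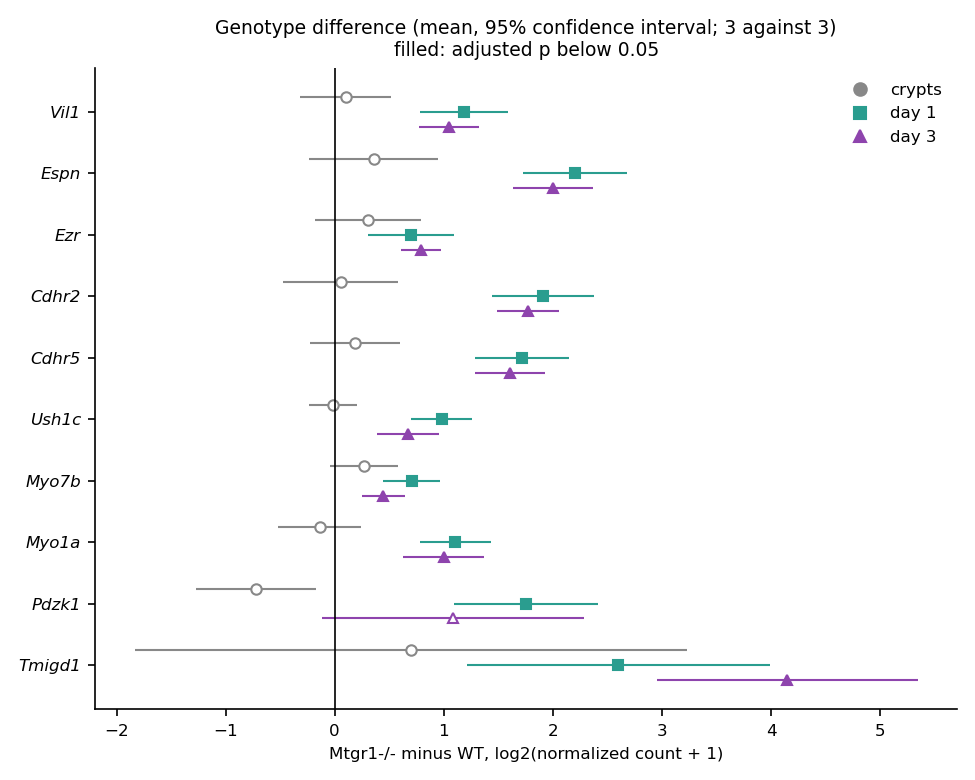
Genotype difference of each microvillus gene on log2(normalized count + 1), Mtgr1-/- minus WT, with 95% confidence intervals from limma (3 libraries against 3). Circles are crypts, squares day 1 and triangles day 3, and filled symbols passed an adjusted p of 0.05: 0 in crypts, 10 on day 1 (Tmigd1 being tested there only through its Mtgr1-/- libraries) and 9 on day 3. Of all genes tested, 4.73% were called in either direction in crypts, and 30% on day 1 and 29.9% on day 3 were called higher.

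The size of these differences depended on how libraries were scaled. Dividing by each library's total in place of the deposited factors shifted the median of all genes by -0.319 on day 1 and -0.200 on day 3, and it left the same number of members called on both days, with Vil1 at 0.86 on day 1 and 0.85 on day 3. After quantile normalization Vil1 differed by 0.64 on day 1, Myo1a by 0.64 and Myo7b by 0.35, and 1 member fewer was called on each day (Ezr on day 1 and Myo7b on day 3).

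Whether the genotype difference itself changed between times was tested by a separate limma fit for each pair of times, over the 18 libraries and the genes that passed the filter at both times, each mouse being a random effect. The correlation within a mouse was estimated at -0.00412 to -0.00186, near 0. From crypts to day 1 the difference became more positive in 8 of 10 members (20.2% of 12241 genes did), and from crypts to day 3 in 8 of 10 (16.3% of 12314 genes). Both contrasts use the same crypt libraries. The increase from crypts to day 1 was 1.08 (95% confidence interval 0.61 to 1.56, adjusted p 0.00269) for Vil1, 1.85 (95% confidence interval 1.13 to 2.57, adjusted p 0.00161) for Espn and 1.85 (95% confidence interval 1.24 to 2.47, adjusted p 8.35e-04) for Cdhr2. Pdzk1, which was lower in Mtgr1-/- crypts without being called, had the widest swing, 2.47 (95% confidence interval 1.17 to 3.78, adjusted p 0.00634). Ezr, at 0.40 (95% confidence interval -0.12 to 0.92, adjusted p 0.204), and Tmigd1, at 1.90 (95% confidence interval -0.72 to 4.53, adjusted p 0.230), were not called, and Myo7b, at 0.44 (95% confidence interval 0.11 to 0.77, adjusted p 0.0340), lost its call in 7 of the 12 fits that left out 1 library and after quantile normalization. The change of Ezr was called without Mtgr1-/- crypt replicate 3 (0.58, adjusted p 0.0488 to day 1, and 0.67, adjusted p 0.0329 to day 3). From crypts to day 3, Ezr and Myo7b were not called, and the changes of Pdzk1 (1.81, 95% confidence interval 0.50 to 3.11, adjusted p 0.0374) and Tmigd1 (3.46, 95% confidence interval 0.84 to 6.07, adjusted p 0.0446) lost their calls in 9 and 8 of the 12 fits without 1 library. Tmigd1 also lost its call with the mouse as a fixed block (adjusted p 0.0532), with no filter on low values (adjusted p 0.0506) and after quantile normalization (adjusted p 0.0824). Tmigd1, which passed the day 1 filter only through the Mtgr1-/- libraries, changed by 3.10 to day 1 without WT crypt replicate 3. In the fits without that library its change to day 3 was 4.65 (adjusted p 0.00494). That of Pdzk1 to day 3 was then not called (1.77, adjusted p 0.0619). Those fits called 9 members to day 1, Tmigd1 among them, and 7 to day 3.

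Between day 1 and day 3 the genotype difference changed in 0 of 10 members by limma (0 at an unadjusted p below 0.05 as well), and in 4 of 12413 genes, or 0.0322%. The estimates ran from -0.67 for Pdzk1 to 1.55 for Tmigd1, and the 95% confidence interval of Vil1 was -0.61 to 0.34, so changes within such intervals were not resolved with 3 mice per genotype.

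The levels of the members in culture were then set against the crypts of the same mouse, as RPM of the library's total and without a test, since the time points were normalized in separate tables. In WT mice, 9 of the 10 genes were lower on day 1 than in crypts in 3 of 3 mice, with a median log2 change of -1.08, against 23.8% of 12242 genes and a median of 0.23 over those genes. On day 3, 9 of 10 were lower, with a median of -1.68, against 22.3% of 12314 genes and a median of 0.32. In Mtgr1-/- mice 6 of 10 were lower and 2 of 10 higher in 3 of 3 mice on day 1 (median -0.29), against 44.3% and 22.6% of all genes (median -0.15), and 7 of 10 were lower on day 3 (median -0.51), against 21% (median 0.047). With TMM factors over all libraries, 9 members were lower in WT mice on either day, against 36.2% of all genes on day 1 and 36.8% on day 3. In Mtgr1-/- mice 5 were lower with these factors on day 1 (median -0.14), against 32.9% of all genes. On day 3 there were 6 (median -0.54), against 23.6%. For Vil1 the log2 change on day 1 was -1.17, -1.28 and -0.67 in WT mice 1 to 3 and -0.32, -0.38 and -0.22 in Mtgr1-/- mice. The mice of the 2 genotypes did not overlap.

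The protocadherins lay on opposite sides of their crypt levels in the 2 genotypes on day 1. For Cdhr2 the log2 change from crypts was -1.15, -1.35 and -0.85 in the 3 WT mice and 0.41, 0.51 and 0.23 in the 3 Mtgr1-/- mice. Cdhr5 showed -1.01, -1.23 and -0.81 in WT and 0.15, 0.15 and 0.21 in Mtgr1-/- mice. In both genes every WT mouse was lower and every Mtgr1-/- mouse higher than its own crypts, and the same held with TMM factors over all libraries. Espn was at -1.48, -1.72 and -1.67 in WT and -0.19, 0.11 and -0.30 in Mtgr1-/- mice. Myo7b was unlike these, with -0.67, -0.78 and -0.50 in WT and -0.60, -0.55 and -0.54 in Mtgr1-/- mice, 2 overlapping ranges. Pdzk1 was furthest below its crypts on day 1 by the mean, at -4.37, -4.18 and -5.13 in WT and -2.13, -1.86 and -3.30 in Mtgr1-/- mice, and it was low on day 3 too, at -4.91, -5.84 and -5.21 and -3.52, -2.37 and -5.30. Tmigd1 was scattered, at -6.04, -5.68 and -0.75 in WT and -0.82, -2.82 and -3.38 in Mtgr1-/- mice on day 1. On day 3 it was at -5.00, -4.38 and 0.72 in WT mice, where mouse 3 had few reads in crypts, and at 1.49, -0.14 and 0.034 in Mtgr1-/- mice.

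**Figure D3:**
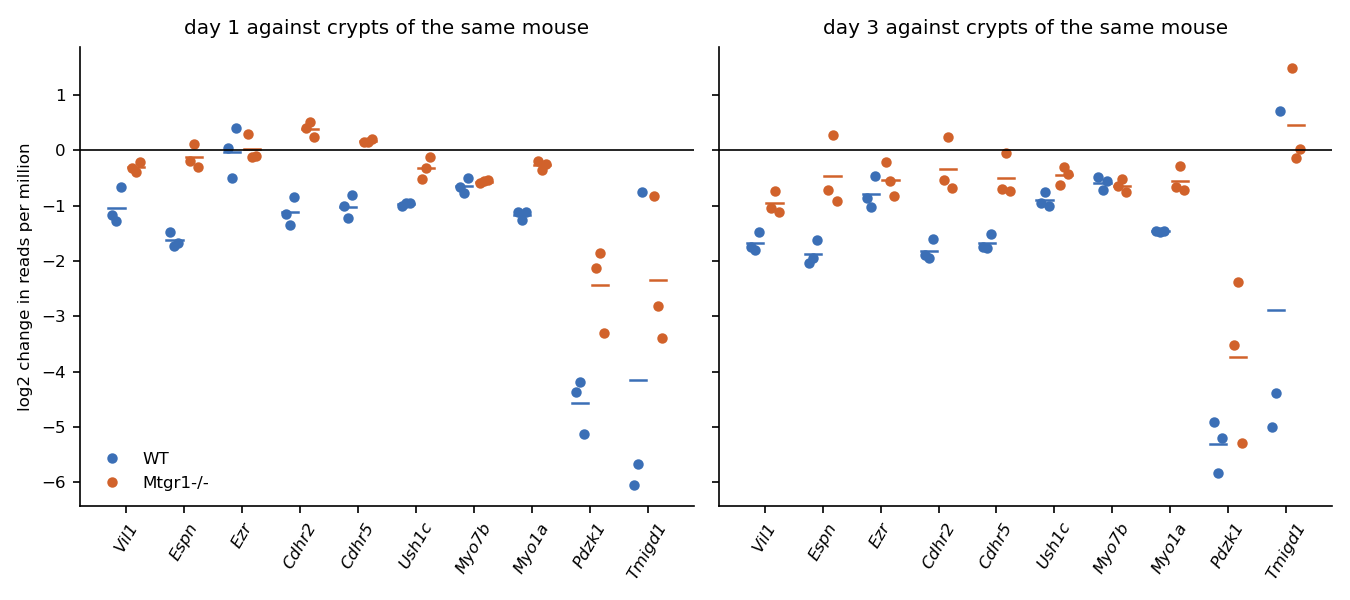
Log2 change in RPM from the crypts of the same mouse to day 1 (left) and day 3 (right) enteroids, for each microvillus gene. Points are single mice, WT in blue and Mtgr1-/- in orange, and bars are means of 3. On day 1 every WT mouse lies below 0 for 9 genes, while Cdhr2 and Cdhr5 lie above 0 in every Mtgr1-/- mouse. Of all genes, 23.8% lay below 0 in every WT mouse and 22.6% above 0 in every Mtgr1-/- mouse on day 1.

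Ratios between members within a library, which no factor per library can alter, differed from gene to gene. They are given without a test, since the exact permutation test of 3 against 3 libraries cannot go below 0.1. Vil1 itself differed between genotypes in enteroids, and of all other genes tested 83.9% on day 1 and 88.6% on day 3 had ratios to Vil1 that did not overlap, more than the 5 of 9 and 7 of 9 members, so that non-overlap there is a description only. Relative to Vil1, on the log2 scale, Espn was at -5.33 ± 0.46 in WT and -4.31 ± 0.03 in Mtgr1-/- libraries on day 1, a difference of 1.02, and the difference on day 3 was 0.95. Cdhr2 was higher relative to Vil1 by 0.72 on day 1 and 0.72 on day 3, and Cdhr5 by 0.54 and 0.56. These 3 genes did not overlap between genotypes on either day. Ezr (-0.48 and -0.26) and Myo7b (-0.48 and -0.60) were lower relative to Vil1 on both days, also without overlap, and Ush1c was lower on day 3 (-0.38) without overlap. The ratio of Myo1a to Vil1 differed by -0.078 and -0.048, with overlapping libraries on both days, and that of Tmigd1 by 3.26 on day 3, with no overlap. In crypts, 3 genes had ratios to Vil1 that did not overlap: Myo7b (0.17), Myo1a (-0.24) and Pdzk1 (-0.82). That was 3 of 9 members, against 18.2% of all other genes. Inside the tip complex, the log2 ratio of Ush1c to Cdhr2 was -2.19 ± 0.18 in WT and -2.26 ± 0.35 in Mtgr1-/- libraries in crypts, -2.04 ± 0.20 in WT and -2.97 ± 0.32 in Mtgr1-/- libraries on day 1 and -1.29 ± 0.21 in WT and -2.39 ± 0.099 in Mtgr1-/- libraries on day 3. The crypt ratios overlapped and the enteroid ratios did not, as was true on day 1 of the ratio to Cdhr2 of 92.6% of all other genes and on day 3 of 93.8%. Myo7b to Cdhr2 showed the same, at -1.04 ± 0.16 in WT and -0.82 ± 0.29 in Mtgr1-/- libraries in crypts and 0.20 ± 0.12 in WT and -1.13 ± 0.098 in Mtgr1-/- libraries on day 3. The ratio of the 2 cadherins varied little, at 0.083 ± 0.078 in WT and -0.049 ± 0.16 in Mtgr1-/- libraries in crypts and -0.017 ± 0.065 in WT and 0.17 ± 0.16 in Mtgr1-/- libraries on day 1, with overlap at both times, and -0.054 ± 0.084 in WT and 0.11 ± 0.095 in Mtgr1-/- libraries on day 3, with none.

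**Figure D4:**
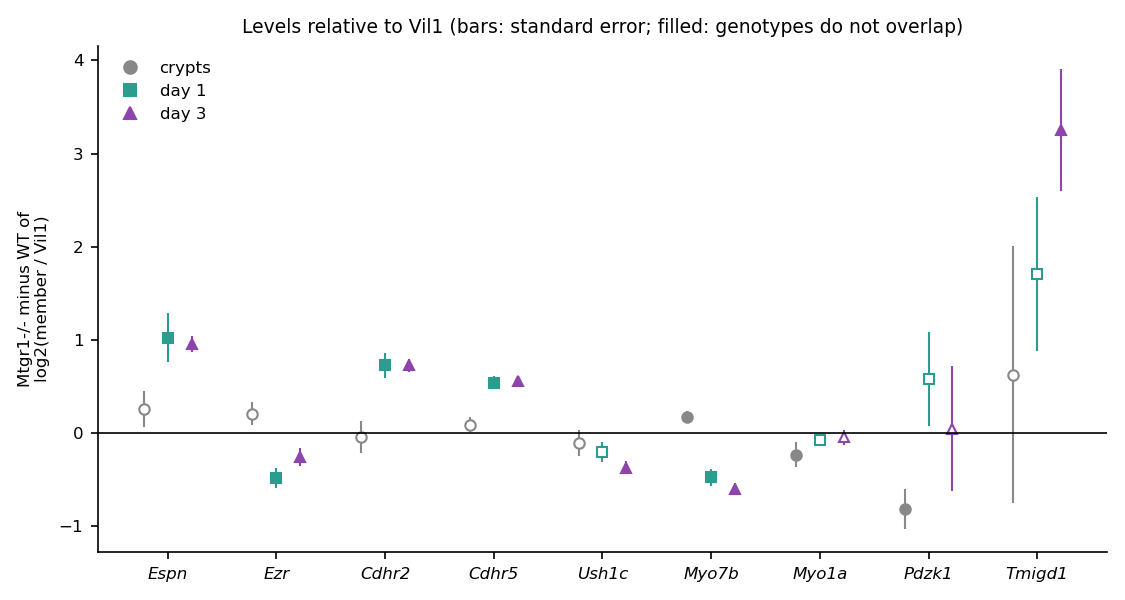
Difference between genotypes, Mtgr1-/- minus WT, of the log2 ratio of each gene to Vil1 within a library. Bars are standard errors over 3 and 3 libraries, and filled symbols mark ratios that did not overlap between genotypes. Espn, Cdhr2 and Cdhr5 lie above 0 and Ezr and Myo7b below 0 on days 1 and 3.

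Over the 18 libraries the members varied together, as a description with no test, since libraries of a group and a mouse are not independent points. Pearson's r between 2 members on log2(RPM + 1) had a median of 0.839 over 45 pairs, from 0.324 (Ezr with Tmigd1) to 0.990 (Cdhr2 with Cdhr5). No such median was computed for pairs of other genes, and genes that differ between the groups in the same way correlate here for that reason. Of deviations from the 6 group means, which leave out genotype and time, the median was 0.391. Vil1 and Cdhr5 kept the closest ties to the others in those deviations (medians 0.656 and 0.655), and Tmigd1 (0.00063) and Pdzk1 (0.034) the weakest. The lowest pair was Ush1c with Pdzk1, at -0.34. The 10 other genes with the highest mean r to the members, among 12135, were Slc6a8 (0.878), Slc7a9 (0.876), Btnl6, Iqgap2, Btnl2, Trim31, Maf, Slc51a, Erich4 and Ilvbl (0.872). Slc6a8 and Slc7a9 encode transporters of creatine and of cystine and cationic amino acids.

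Other genes of the brush border were counted by role. Of all genes tested, 4.73% were called in either direction in crypts. On day 1, 30% were called higher and 28.9% lower, and on day 3, 29.9% and 29.1%. Of 15 tested genes of the actin core and its caps, 0 were called in crypts, 9 were higher and 3 lower in Mtgr1-/- enteroids on day 1 (median 0.72), and 9 were higher and 1 lower (Lcp1) on day 3. The largest differences upward on day 1 were those of Pls1, the intestinal fimbrin (12161 ± 725 in WT and 30122 ± 4925 in Mtgr1-/- enteroids, log2 difference 1.3 with an adjusted p of 3.34e-04), Cobl, an actin nucleator (1.29, adjusted p 3.69e-04), and Eps8l2, a relative of the tip protein Eps8 (1.22, adjusted p 4.67e-04). Lcp1, the leukocyte fimbrin, was lower at -1.99 (adjusted p 6.89e-04), as were Pls3 (-0.74, adjusted p 0.0105) and Twf2 (-0.53, adjusted p 0.0268). The 3 fimbrins thus did not share a direction. Of 6 adhesion partners and apical mucins, 0 were called in crypts, 5 were higher on day 1 (median 1.13) and 4 on day 3. Muc3, a transmembrane mucin, was higher by 2.25 (adjusted p 1.82e-04) on day 1 and 2.81 (adjusted p 2.66e-05) on day 3, while Clrn3, a tetraspan relative of clarin, was higher by 1.33 (adjusted p 4.49e-04) on day 1 and Anks4b, the ankyrin scaffold of the tip complex, by 0.75 (adjusted p 0.00481) on day 3.

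Among 16 linkers and other motors, 1 was higher in crypts (Slk, a kinase that phosphorylates ezrin, 0.58, adjusted p 0.0261), 9 were higher and 1 lower on day 1 (the scaffold Slc9a3r2, at 22.7 ± 6.47 in WT and 5.46 ± 3.10 in Mtgr1-/- enteroids), and 11 were higher and 0 lower on day 3. Slc9a3r2 passed the filter on day 1 only through the WT libraries. Beside the counts of this paragraph, 1.58% of all genes tested were called higher in crypts and 3.15% lower. The shares were 30% and 28.9% on day 1, and 29.9% and 29.1% on day 3. Slc9a3r1, the ezrin-binding scaffold also called NHERF1 or EBP50, was at 7128 ± 700.4 in WT and 22667 ± 4976 in Mtgr1-/- enteroids on day 1, 1.65 (adjusted p 2.89e-04), a larger difference than that of Ezr. The relatives of ezrin were rare: Rdx (radixin) was at 10.9 ± 11.5 in WT and 163 ± 92.1 in Mtgr1-/- enteroids on day 1 (4.26, adjusted p 0.00368), and Msn (moesin) at 7.82 ± 6.07 and 139.9 ± 40.3 on day 3, where Msn passed the filter only through the Mtgr1-/- libraries. Ezr itself had at least 8234 normalized counts in each of the 18 libraries. Of the terminal web and its keratins, 2 of 12 tested genes were higher in crypts (Krt18, 0.58, adjusted p 0.0237, and Tjp1, 0.40, adjusted p 0.0333), 6 of 12 on day 1 and 10 of 13 on day 3, with none lower. Krt20, a keratin of mature epithelium, was higher by 2.26 (adjusted p 7.64e-04) and Myh14, a non-muscle myosin, by 1.25 (adjusted p 5.56e-04) on day 1. Of 8 apical trafficking genes, 0 were called in crypts, 6 were higher on day 1 and 7 on day 3, among them Stxbp2 (0.83, adjusted p 0.00110 on day 1) and Rab11a (0.82, adjusted p 9.79e-04), both needed to deliver membrane to the brush border.

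Hair cell bundles of the inner ear use relatives of the same parts. Of 12 such genes only 3 passed the filter in the tables. On day 1 Clic5 (1.72, adjusted p 1.35e-04) and Myo7a, the sister motor of Myo7b (0.69, adjusted p 0.0150), were higher and Whrn, a scaffold related to harmonin, was lower (-1.65, adjusted p 5.82e-04). Of 16 transcriptional regulators linked to enterocytes or to actin genes, 0 were called in crypts, 8 were higher and 3 lower on day 1 (median 0.33), and 7 were higher and 2 lower (Cdx1 and Mrtfb) on day 3. Maf (2.01, adjusted p 1.35e-04), Creb3l3 (1.75, adjusted p 1.85e-04) and Prdm1 (1.72, adjusted p 0.00665) were higher by the most on day 1. Cdx1 (-0.75, adjusted p 9.25e-04), Mrtfb, a co-activator of SRF (-0.58, adjusted p 7.34e-04), and Srf itself (-0.28, adjusted p 0.0484) were lower. These counts stand beside 4.73% of all genes called in either direction in crypts, 58.9% on day 1 and 59% on day 3.

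**Figure D5:**
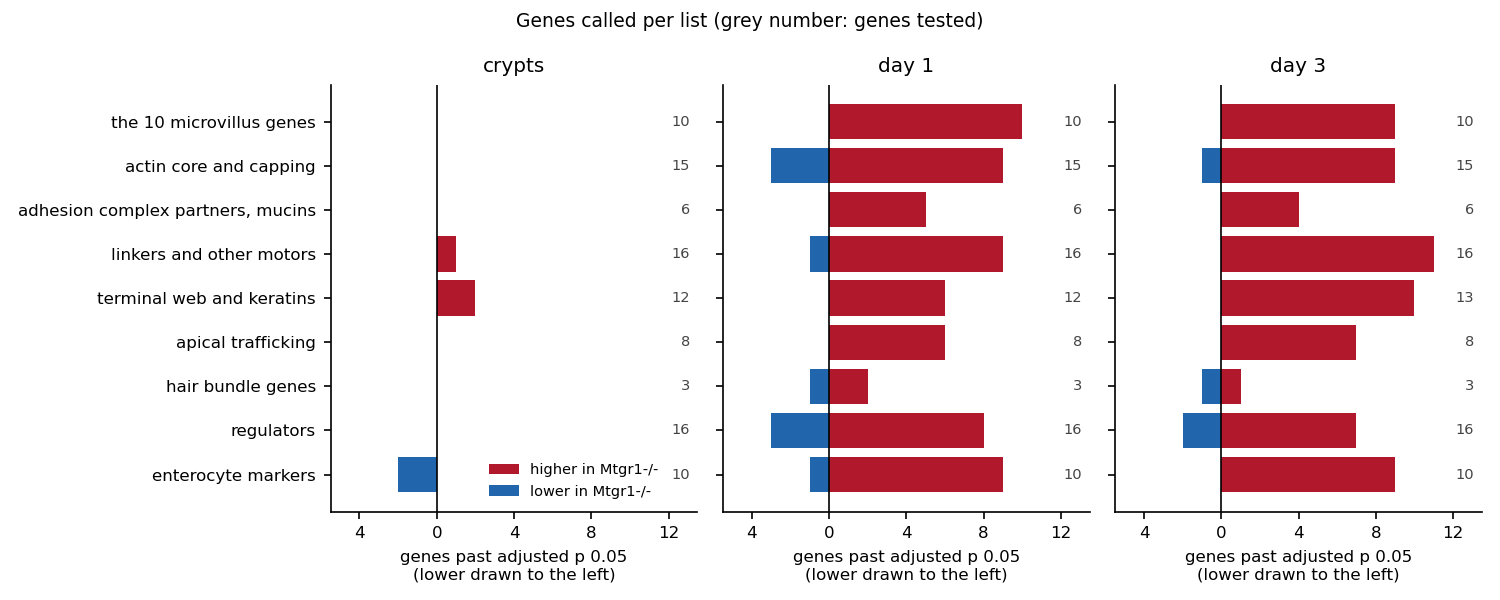
Number of genes per list past an adjusted p of 0.05 at each time, higher in Mtgr1-/- drawn to the right in red and lower to the left in blue, with the number tested in grey. In crypts at most 2 genes of a list pass, and on days 1 and 3 rises outnumber falls in every list except the hair bundle genes on day 3, where 1 gene rose and 1 fell. Of all genes tested, 4.73% pass in crypts, 58.9% on day 1 and 59% on day 3, in either direction.

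Markers of cell types were compared by the same test and by their sums. Of all genes tested, 4.73% were called in either direction in crypts, 58.9% on day 1 and 59% on day 3. Of 10 enterocyte markers, 2 were lower in Mtgr1-/- crypts, among them Sis, sucrase-isomaltase (-4.51, adjusted p 0.00285), 9 were higher and 1 lower on day 1, and 9 were higher on day 3. Their summed level was 26403 to 31727 RPM in WT and 16761 to 26220.0 in Mtgr1-/- crypts, 16717 to 20603 and 27806 to 36255 on day 1, and 13627 to 14812 and 22407 to 36939 on day 3. The sums did not overlap at any time: they were lower in Mtgr1-/- crypts, where the members' sums overlapped, and higher in Mtgr1-/- enteroids, as the members' sums were. The median log2 difference of the 10 markers in crypts was 0.14, and their crypt sum includes Sis. Sis did not follow the members, at -2.59 (adjusted p 0.00151) on day 1. Of 6 crypt base stem cell markers, 1 was lower in Mtgr1-/- crypts (Olfm4, -6.77, adjusted p 6.21e-04) and 6 of 6 on days 1 and 3, with sums of 1022 to 2071 against 24.3 to 36.6 on day 1. Goblet markers were lower in 5 of 5 tested at every time, Paneth markers in 6 of 6 on days 1 and 3, and enteroendocrine markers in 6 of 6 at every time. In crypts 0 of 6 Paneth markers were called, but they summed to 4999.7 to 6279 RPM in WT and at most 1850.0 in Mtgr1-/- libraries, without overlap (median log2 difference -4.90). The highest Mtgr1-/- sum belonged to replicate 2, against at most 74.7 in the other Mtgr1-/- crypts. That mouse also had the highest Paneth sum of its genotype on day 1 (243 RPM, against at most 44.1) and day 3 (297, against at most 126). Tuft cells also carry villin-rich microvilli: their markers summed to 51.5 to 57.1 RPM in WT and 79.5 to 259 in Mtgr1-/- crypts (0 of 5 called), and to 21.9 to 29.0 against 10.8 to 16.3 on day 1 (4 of 5 lower). Markers of fibroblasts, muscle and endothelium summed to at most 11.2 RPM in crypts and 1.13 on day 1, and leukocyte and red cell markers to at most 12.5 on day 1. The part of each cell type in the levels of the members was not tested.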

How the data were processed

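RNA from WT and Mtgr1-/- duodenal crypts and from day 1 and day 3 enteroids (3 mice per genotype, each giving all 3 times) was sequenced by the authors with a stranded kit and 50 bp single reads. Reads were trimmed with fastp 0.20.0, quantified with Salmon 1.3.0 against a GENCODE mouse transcriptome and summed to genes, after which the authors used DESeq2 1.26.0 at each time point. The deposited values are normalized counts (a signal, never negative): gene counts divided by 1 size factor per library within the table of each time point. Values of different time points are therefore compared only as RPM of the library's sum or within a mouse. Columns of the authors' own comparison (mean signal, log2 fold changes with errors, a test score and p-values) were deposited beside them and were not used.

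Values were divided by the step that 1 read is worth, which gave whole reads (tolerance 0.0001, 100% of values) in all 18 libraries. A separate check of the unit accepted 16 of them, with 22035316 to 28621990 reads (median 26258539). In WT crypt replicate 2 and Mtgr1-/- day 3 replicate 2 the step was near 1 (0.990 and 0.994). The check did not accept these 2 libraries, and they were left out of the count tests. Genotypes were compared with limma 3.58.1 (R 4.3.3, trend, no sex or batch term) on log2(normalized count + 1) for genes with a mean of at least 10, adjusted by the Benjamini-Hochberg method over all genes, at 0.05. A fold change on this scale understates the change of low genes. Changes of the genotype difference between times were fitted over the 18 libraries separately for each pair of times, the mouse being a random effect, and fits without 1 library reused the within-mouse correlation of the full fit. edgeR 4.0.16 (quasi-likelihood) and DESeq2 1.42.0 on recovered reads, other scalings, pseudocounts of 0.1 and 8, filters, weights per library, a block for the mouse number and leaving out each library were alternatives, and scaling to the library total was added after seeing the data. Replicates are separate mice. On day 1 same-numbered mice of the 2 genotypes deviated together (correlations of deviations from the group means 0.116, 0.231 and 0.216). The labels do not say whether the numbers pair mice. The main fits held no pairing, and the block for the mouse number was an alternative. In data made with 200 genes changed by 2- or 4-fold, the limma fit recovered 189 in crypts (of 12916 genes run), 188 on day 1 (12519) and 186 on day 3 (12717), and the fit of the change from crypts to day 1 recovered 156 (12226). Other genes called were 9, 9, 7 and 7. All genes had the same dispersion there and no mouse effect. Smaller changes, and shares of changed genes as large as those on days 1 and 3, were not simulated, so power for small crypt differences is not given. Intervals on reads cover counting error only.

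The members, the other gene lists and the cell type markers were chosen with earlier results of these data known. All 10 members are named, and of each other list up to 3 genes per direction and time with the largest called differences, except 1 marker gene that is not reported here. The genes most like the members are the 10 with the highest mean Pearson correlation to them among genes with a mean of at least 10 in every table. Promoter windows came from RefSeq (GRCm38.p6), matched by symbol. Gene lengths were those of the longest coding transcript in GENCODE. Protein sequences were not used here.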

Additional observations from a re-analysis of the deposited data

Results flagged for a closer look

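The genotype difference of 8 of 10 members became more positive between crypts and day 1, by a test of that change (limma, mouse as a random effect, Benjamini-Hochberg over 12241 genes). So did that of 20.2% of those genes. The change was 1.08 for Vil1, 1.85 for Espn, 1.85 for Cdhr2, 1.54 for Cdhr5, 0.99 for Ush1c, 0.44 for Myo7b, 1.24 for Myo1a and 2.47 for Pdzk1 on the log2 scale. Between crypts and day 3 the change was 0.95 for Vil1, 1.64 for Espn, 1.72 for Cdhr2, 1.42 for Cdhr5, 0.68 for Ush1c, 1.14 for Myo1a, 1.81 for Pdzk1 and 3.46 for Tmigd1. There 16.3% of 12314 genes became more positive. Myo7b to day 1 lost its call in 7 of the 12 fits without 1 library. Pdzk1 and Tmigd1 to day 3 lost theirs in 9 and 8 of 12. The 2 sets of changes share the crypt libraries and are not independent of each other.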

How the results depend on the processing

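Of 1332 alternative values, 1110 were values of single members and the rest were counts of members called. In all, 1273 were rated the same. For a member that meant the same direction and side of the threshold. For a count it meant a number equal or close to that of the main fit, counts that stayed at 0 included. The number of members called higher was 9 to 10 on day 1 and 8 to 10 on day 3 over all alternatives, and it was 7 to 9 for the change from crypts to day 1 and 6 to 8 for that from crypts to day 3. The counts given here for day 1 include Tmigd1 where it was called. It passed the filter there only through the Mtgr1-/- libraries. In crypts, 0 members were called lower in the main fit, 1 (Pdzk1) with array weights (whose estimation stopped short of its tolerance in crypts), and 0 to 1 with 1 library left out, the 1 without Mtgr1-/- replicate 3. With the mouse number as a replicate block, limma called 0 members in crypts, 10 on day 1 and 9 on day 3, as without it, and the mouse as a fixed effect left 8 changes from crypts to day 1 and 7 to day 3. The block changed no other call than that of Tmigd1 to day 3. Same-numbered mice deviated together in crypts in part (correlations 0.0764, 0.274 and 0.346) and not on day 3 (-0.00666, -0.00226 and -0.0156).

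Crypt differences that were not called turned direction: Ush1c to 0.056 with array weights, 0.017 with scaling to the library total and between -0.067 and 0.037 with 1 library left out, Tmigd1 to -0.94 with array weights and between -0.51 and 1.31 with 1 library left out, Vil1 between -0.020 and 0.18 and Cdhr2 between -0.14 and 0.29. Quantile normalization turned the uncalled changes of Ezr to day 1 (-0.017) and of Myo7b to day 3 (-0.071), and those from day 1 to day 3 of Vil1 (0.080), Cdhr2 (0.12), Cdhr5 (0.033) and Myo1a (0.11). With 1 library left out the last ran from -0.29 to 0.0023 for Vil1, -0.35 to 0.00019 for Cdhr2, -0.31 to 0.041 for Cdhr5, -0.28 to 0.050 for Myo1a and -0.056 to 0.23 for Ezr. The cause was not tested. Depth limits Tmigd1 and Pdzk1 most, with 15 and 328 reads in the 3 WT day 1 libraries.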
